A study of Mus musculus with 24 samples.

Results

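Astrocytes are the star-shaped glial cells of the brain. The 10 genes described here are genes by which astrocytes, and their reaction to injury or inflammation, are commonly recognised: Gfap, Vim, Serpina3n, Slc1a2, Slc1a3, Glul, Aqp4, Gja1, Aldh1l1 and S100b. They were found by gene name in the deposited expression table, where all 10 are listed, among 54532 genes in all. Expression was measured by RNA sequencing of poly-A selected RNA from the brains of 24 male mice labelled WT C57Bl6 (wild type), with 6 mice in each of 4 groups. Mice were infused with saline (vehicle) or with angiotensin II, a peptide hormone that raises blood pressure, at 0.7 mg/kg/day for 2 weeks from an osmotic minipump. In each arm a second group of mice also received human amnion epithelial cells (AECs), cells of the placental membranes, which the study injected into a tail vein after pump surgery. This gave the groups vehicle, angiotensin II, vehicle + AEC and angiotensin II + AEC. By the study's methods, mice not given AECs had saline injected into the tail vein instead. The mice carried no transgene or deletion, and the young adult age given in the study's methods was common to all groups. The study's methods state that brain hemispheres were harvested. The tissue was taken without separating regions or cells, so each value is an average over all cell types. Fewer astrocytes therefore cannot be told apart from less RNA of a gene per astrocyte. The comparisons ask whether angiotensin II changes the astrocyte genes of the brain, and whether AECs change them in mice with and without angiotensin II.

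Astrocytes take up the glutamate that neurons release, convert it to glutamine, hold potassium and water in balance, and wrap blood vessels with their endfeet. When the brain is injured or inflamed they become reactive: they commonly make more of the filament proteins of their skeleton and of some secreted proteins, and signals of the interleukin-6 family acting through the transcription factor STAT3 are among the known inducers. Among the 10 genes, Gfap and Vim encode intermediate filament proteins and Serpina3n a secreted protease inhibitor, all known to rise in reactive astrocytes. Slc1a2 and Slc1a3 encode the main glutamate transporters of astrocytes, and Glul encodes glutamine synthetase, the enzyme that turns glutamate into glutamine. Aqp4 encodes the water channel of the endfeet and Gja1 encodes connexin 43, which joins astrocytes through gap junctions. Aldh1l1, an enzyme of folate metabolism, and S100b, a calcium-binding protein, are used as general astrocyte markers. None of them is confined to astrocytes: Vim is also strong in vessels and meninges, S100b and Glul also occur in oligodendrocytes, and Serpina3n occurs in other glia.

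Depth and library quality bear on all values that follow. The deposited unit is FPKM, the fragments of a gene per kilobase of its length and per unit of library size, which allows levels to be compared between genes. The fragments behind the values numbered from 16536449 to 25308700 per mouse. When the FPKM values of a library were added up, 18 libraries gave totals of 277115.9 to 298300.6, here called the low set, and 6 libraries gave 338334.5 to 348596.7, the high set. The high set holds vehicle replicates 5 and 6, angiotensin II replicate 5, vehicle + AEC replicate 6, and angiotensin II + AEC replicates 5 and 6. Mitochondrial genes took 4.79% to 5.75% of fragments in the low set and 6.17% to 6.85% in the high set. The labels name no such sets, so their origin was not tested. For each gene at least 1 difference is given both over all libraries and with the sets taken into account.

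Positions are given on the mouse genome build GRCm38, as deposited. Gfap is at chr11:102887336-102900912 on the minus strand, Vim at chr2:13573927-13582826 on the plus strand, and Serpina3n at chr12:104406729-104414329 on the plus strand. Slc1a2 spans chr2:102658659-102790784 (plus), Slc1a3 spans chr15:8634124-8710764 (minus) and Glul is at chr1:153899944-153909723 (plus). Gja1 is at chr10:56377330-56402513 (plus), S100b at chr10:76253853-76261159 (plus) and Aldh1l1 at chr6:90486427-90600203 (plus). All 10 are protein-coding. The span of 6 of them overlaps that of another gene: Gfap overlaps the non-coding Gm26668, Slc1a2 the antisense Gm13872, Slc1a3 the transcript Gm37310, Aldh1l1 the transcripts Gm45901, Gm15756 and Gm44236, S100b the gene Dip2a, and Glul the gene Teddm2 and the microRNA gene Mir8114. The use of strand in counting is not stated in the sources used here, so reads of these overlapping genes may be divided differently between them.

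Promoters of 4 members illustrate what lies before the start sites of these genes. They were taken from RefSeq (build GRCm38.p6) as the 250 bases before the annotated start, and 9 of the 10 genes had an entry that was used. Gfap and Serpina3n are shown because they are known for rising together in reactive astrocytes, and Slc1a3 and Gja1 because they varied together most closely of all pairs within the library sets. Each is written 5′ to 3′ on the strand of its gene, and capitals mark the motifs found by a letter search on both strands. The windows are chr11:102897201-102897450 (minus strand, inside the longer deposited span of Gfap and overlapping the span of Gm26668), chr12:104406458-104406707 (plus), chr15:8710808-8711057 (minus) and chr10:56377050-56377299 (plus), with no annotated exon in any of them.
Gfap: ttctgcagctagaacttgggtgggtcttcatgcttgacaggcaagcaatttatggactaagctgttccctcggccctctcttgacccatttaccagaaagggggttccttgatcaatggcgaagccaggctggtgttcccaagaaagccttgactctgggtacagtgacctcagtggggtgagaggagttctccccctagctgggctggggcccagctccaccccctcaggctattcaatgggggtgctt
Serpina3n: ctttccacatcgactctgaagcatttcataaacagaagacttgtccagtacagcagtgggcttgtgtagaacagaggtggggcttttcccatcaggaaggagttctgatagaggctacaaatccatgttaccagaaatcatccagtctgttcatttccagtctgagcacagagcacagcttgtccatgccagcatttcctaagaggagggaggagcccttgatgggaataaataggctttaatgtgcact
Slc1a3: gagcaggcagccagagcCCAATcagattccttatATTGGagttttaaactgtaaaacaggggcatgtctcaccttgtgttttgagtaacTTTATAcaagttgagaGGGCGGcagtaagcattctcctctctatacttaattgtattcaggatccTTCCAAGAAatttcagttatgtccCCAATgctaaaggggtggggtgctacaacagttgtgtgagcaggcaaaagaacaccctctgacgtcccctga
Gja1: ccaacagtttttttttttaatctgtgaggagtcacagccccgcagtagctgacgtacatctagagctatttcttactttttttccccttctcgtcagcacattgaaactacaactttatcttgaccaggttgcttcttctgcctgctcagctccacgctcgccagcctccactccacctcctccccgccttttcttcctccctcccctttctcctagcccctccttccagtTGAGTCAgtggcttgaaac
The motifs searched were STAT (TTCNNNGAA), the CCAAT box (CCAAT), the GC box (GGGCGG), the TATA box (TATAAA), the NFI core (TTGGC) and AP-1 (TGANTCA); the letters of the NFI core can overlap those of a CCAAT box on the other strand. The STAT letters occurred in 1 of the 9 promoters, that of Slc1a3, from base 96 to base 88 before the start, and in 7.04% of all 32536 RefSeq promoter windows of this length. The AP-1 letters occurred in Gja1 alone of the 9, from base 19 to base 13 before the start, and in 6.73% of all windows. CCAAT was found in 5 of the 9 promoters (Vim, Slc1a3, Aldh1l1, S100b and Glul) against 33.81% of all windows, and TTGGC in 4 of the 9 (Vim, Slc1a2, S100b and Glul) against 41.64%. GGGCGG was found in 3 of the 9 against 32.97%, and TATAAA in 2 of the 9, Vim and Slc1a3, against 12.31%. In the windows of Gfap and Serpina3n none of these letters was found. Of the windows not printed, annotated exon covered all 250 bases for Vim and for Glul. The Glul window overlaps Teddm2 and Mir8114. The windows of Vim, Slc1a2 and Aldh1l1 lay inside the deposited span of their own gene. Bases further before the start were not searched.

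All 10 genes were well expressed, and their levels spanned a range from 11.1 to 460 FPKM on average over the 24 mice. Glul was the highest at 460 ± 35 FPKM (SD, n = 24 mice) and ranked at place 40 in the whole table. S100b followed at 137 ± 18.4 FPKM, Slc1a2 at 109 ± 21.1 FPKM and Gfap at 75.9 ± 12.8 FPKM. Slc1a3 stood at 42.2 ± 6.46 FPKM, so that the Slc1a2 transporter was more abundant per length than the Slc1a3 transporter. The lowest were Aqp4 at 17.8 ± 1.68 FPKM, Gja1 at 16.2 ± 1.74 FPKM, Aldh1l1 at 14.1 ± 1.12 FPKM, Vim at 11.9 ± 2.23 FPKM and Serpina3n at 11.1 ± 1.63 FPKM. Between neighbours in this order, the ranges over the mice did not overlap between Glul and S100b, between Gfap and Slc1a3, or between Slc1a3 and Aqp4. The other 6 neighbouring pairs overlapped, and the higher of a pair was above the lower in the same mouse in 18 to 22 of 24 mice. The order also depended on the library set: in all 6 high-set libraries Gfap (88.4 to 111 FPKM) was above Slc1a2 (72.7 to 79.7 FPKM) and Aldh1l1 was above Gja1, while in all 18 low-set libraries Slc1a2 was above Gfap and Gja1 above Aldh1l1. Even the least covered gene, Serpina3n, rested on 358 to 709 reads per mouse, and Slc1a2 on 16429 to 38088 reads, so that counting error is smaller than the spread between mice.

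**Figure D1:**
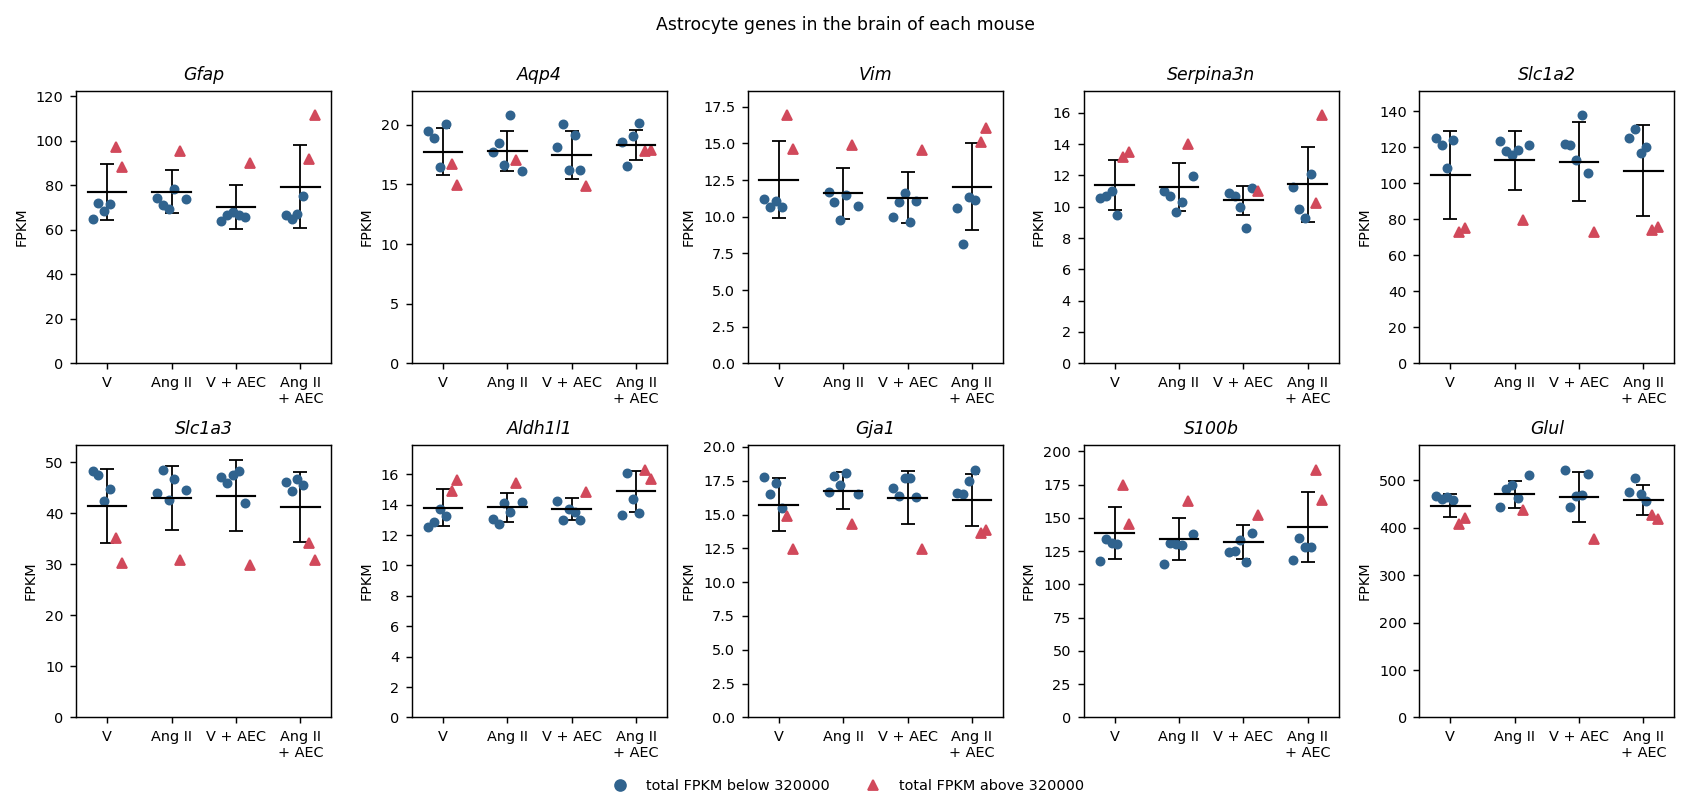
FPKM of each of the 10 genes (y axis, from 0) in each mouse of the 4 groups (x axis: V, vehicle; Ang II, angiotensin II; V + AEC, vehicle + AEC; Ang II + AEC, angiotensin II + AEC). Lines are group means with SD bars (n = 6), circles the 18 libraries of low and triangles the 6 libraries of high total FPKM; the groups overlap for every gene, and triangles stand above the circles for Gfap, Vim and S100b and below them for Slc1a2, Slc1a3, Gja1 and Glul.

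None of the 10 genes passed the test in any comparison. A limma model of log2(FPKM + 0.1) over the 24 mice gave each difference, and p-values were adjusted by the Benjamini-Hochberg method across 27286 tested genes. At an adjusted p under 0.05, 0 of 10 genes were called with angiotensin II against vehicle, and the share of all tested genes called was 0%. The share was likewise 0% in the other comparisons, with 0 of 10 called with angiotensin II + AEC against angiotensin II, with vehicle + AEC against vehicle, with angiotensin II + AEC against vehicle + AEC, and in the interaction of the treatments. At an unadjusted p under 0.05 the 10 genes again gave 0 calls in each. The share of all genes at that threshold was 2.21% (604 genes) with angiotensin II against vehicle, 2.54% (694 genes) with angiotensin II + AEC against angiotensin II, and 2.41% (658 genes) with vehicle + AEC against vehicle. It was 2.66% (725 genes) with angiotensin II + AEC against vehicle + AEC and 2.54% (692 genes) in the interaction. Without vehicle + AEC replicate 6, a high-set library, the counts were 1188 with vehicle + AEC against vehicle, 1247 with angiotensin II + AEC against vehicle + AEC, and 1244 in the interaction. With limma voom on the recovered reads, no gene passed an adjusted p of 0.05 either, and 637 to 729 genes had an unadjusted p under it. A share of 0 of 10 is therefore close to the share of all genes. All 10 have a mean above 1 FPKM. In a fit of the 13649 genes with a mean of at least 1 FPKM, 93 to 136 per comparison had an unadjusted limma p under 0.05.

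The intervals say how large a change could have been missed. The 40 differences of the 10 genes in the 4 pairwise comparisons ran from -0.14 to 0.16 on the log2(FPKM + 0.1) scale, and the 95% interval of all 40 included 0. The widest bounds, both of Slc1a2, were -0.47 and 0.51, or 0.721-fold and 1.42-fold. With the library set as a term in the fit, all 40 intervals again included 0, and the widest bounds were -0.26 and 0.25, both of Serpina3n, or 0.836-fold and 1.19-fold. The interval of Slc1a2 became 3.71 times narrower with that term, that of Slc1a3 3.19 times and that of Gfap 2.70 times, but that of Aqp4 only 1.18 times. In two-sided exact permutation tests of 6 against 6 mice, the lowest p of the 40 was 0.0996, for Aldh1l1 with angiotensin II + AEC against vehicle + AEC, and the adjusted p over the 40 was 0.957 (the design allows 0.00217 at the least). The values of the groups overlapped in all 40 comparisons. The median log2 change of the 10 genes was 0.0072 with angiotensin II against vehicle, beside 0.021 over all tested genes, and 0.015 with angiotensin II + AEC against angiotensin II, beside -0.017. It was -0.016 with vehicle + AEC against vehicle, beside 0.0085, and 0.07 with angiotensin II + AEC against vehicle + AEC, beside -0.0092. These comparisons share groups of mice and are not independent of each other.

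**Figure D2:**
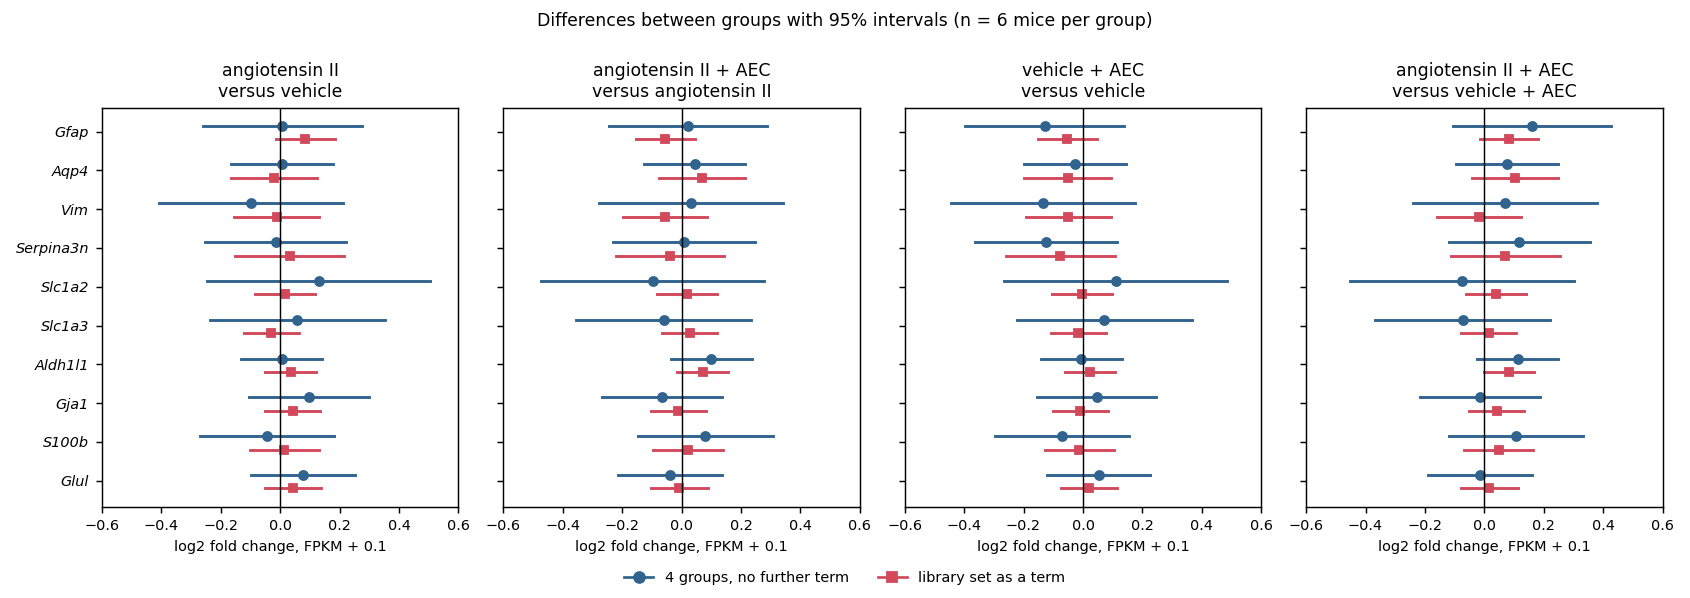
Difference between groups on the log2(FPKM + 0.1) scale (x axis) for each gene (y axis) in the 4 pairwise comparisons, n = 6 mice per group. Points are limma estimates and bars 95% intervals, in blue without and in red with the library set as a term; each bar crosses 0 in both fits, and the red bars are shorter for each gene.

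Among the genes of reactivity, Gfap was nearly level between angiotensin II and vehicle. Gfap ran from 64.6 to 97.1 FPKM (median 71.7) with vehicle and from 69.2 to 95.6 FPKM (median 74.1) with angiotensin II. It ran from 63.9 to 90.0 FPKM (median 66.7) with vehicle + AEC and from 64.8 to 111 FPKM (median 71.0) with angiotensin II + AEC. The 6 highest mice of all were the 6 libraries of the high set, and the 18 others lay between 63.9 and 78.2 FPKM. The group means were 77.0 ± 12.7, 77.1 ± 9.59, 70.2 ± 9.80 and 79.4 ± 18.6 FPKM (SD, n = 6), in the same order. The log2 difference was 0.0079 (95% interval -0.26 to 0.27) with angiotensin II against vehicle and -0.13 (-0.40 to 0.14) with vehicle + AEC against vehicle. It was 0.022 (-0.24 to 0.29) with angiotensin II + AEC against angiotensin II and 0.16 (-0.11 to 0.43) with angiotensin II + AEC against vehicle + AEC, the last with n = 6 and an exact permutation p of 0.275. With the library set as a term, angiotensin II stood 0.085 above vehicle (-0.014 to 0.18). In the 18 low-set libraries alone, Gfap was 0.10 lower on the log2 scale with angiotensin II + AEC than with angiotensin II, an estimate of -0.10 (-0.20 to -0.0084) with an unadjusted limma p of 0.0346 and an adjusted p of 0.998. Over all 24 mice with the library set as a term, the same difference was -0.055 (-0.15 to 0.044), also lower with AECs. Over all 24 mice without that term the direction was opposite. The difference was not called after adjustment in any of these fits.

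Vim, the other filament gene, showed the same arrangement of libraries. It ran from 10.6 to 16.9 FPKM (median 11.1) with vehicle, from 9.79 to 14.9 FPKM (median 11.3) with angiotensin II, from 9.63 to 14.6 FPKM (median 11) with vehicle + AEC and from 8.11 to 16.0 FPKM (median 11.2) with angiotensin II + AEC. The group medians were close, and the highest mouse of each group was a high-set library. The log2 difference was -0.099 (-0.41 to 0.21) with angiotensin II against vehicle and -0.14 (-0.45 to 0.17) with vehicle + AEC against vehicle. With the library set as a term these were -0.012 (-0.15 to 0.13) and -0.049 (-0.19 to 0.093), and in the low set alone 0.0023 and -0.036, so the sign of the first turned.

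Serpina3n was the least abundant of the 10 genes and had the widest interval once the library set was a term. It ran from 9.46 to 13.5 FPKM (median 10.8) with vehicle, from 9.67 to 14.0 FPKM (median 10.8) with angiotensin II, from 8.64 to 11.2 FPKM (median 10.8) with vehicle + AEC and from 9.30 to 15.8 FPKM (median 10.7) with angiotensin II + AEC. The 4 medians were nearly equal, and the sets of libraries overlapped for this gene, at 8.64 to 12.1 FPKM in the low set and 10.3 to 15.8 FPKM in the high set. With vehicle + AEC, each of the 6 mice lay below the vehicle mean, and the log2 difference was -0.12 (-0.36 to 0.11; exact permutation p = 0.225, n = 6). The 2 high-set libraries of the vehicle group were its highest, at 13.2 and 13.5 FPKM, and in the low set alone the difference was -0.024.

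Of the glutamate genes, Slc1a2 varied most between mice. It ran from 72.8 to 125 FPKM (median 115) with vehicle, from 79.7 to 123 FPKM (median 118) with angiotensin II, from 72.7 to 138 FPKM (median 117) with vehicle + AEC and from 74.2 to 130 FPKM (median 119) with angiotensin II + AEC. The high-set libraries, at 72.7 to 79.7 FPKM, stood far below all others, at 105 to 138 FPKM. The log2 difference was 0.13 (-0.24 to 0.51) with angiotensin II against vehicle, and 0.017 (-0.084 to 0.12) once the library set was a term. The groups with 2 of them averaged 104 and 107 FPKM, and those with 1 averaged 113 and 112 FPKM.

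Slc1a3 behaved alike. It ran from 30.3 to 48.2 FPKM (median 43.6) with vehicle, from 30.8 to 48.5 FPKM (median 44.3) with angiotensin II, from 29.9 to 48.3 FPKM (median 46.5) with vehicle + AEC and from 30.9 to 46.6 FPKM (median 44.9) with angiotensin II + AEC. Low-set libraries held 42.0 to 48.5 FPKM and high-set libraries 29.9 to 35 FPKM. The differences between groups ran from -0.074 to 0.072 on the log2 scale. Signs turned with the library set as a term: angiotensin II against vehicle went from 0.058 to -0.029, and angiotensin II + AEC against angiotensin II from -0.060 to 0.028.

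Glul had the lowest coefficient of variation of the glutamate genes over the 24 mice, at 7.61%, but within the low set Slc1a3 was steadier (4.49% against 4.97%). It ran from 409 to 467 FPKM (median 459.7) with vehicle, from 437 to 511 FPKM (median 471) with angiotensin II, from 377 to 523 FPKM (median 468) with vehicle + AEC and from 418 to 505 FPKM (median 463) with angiotensin II + AEC. The mean was 447 ± 25 FPKM in vehicle-infused mice against 471 ± 28.4 FPKM in those given angiotensin II (SD, n = 6), a log2 difference of 0.076 (-0.099 to 0.25) with an exact permutation p of 0.156 (n = 6). With the library set as a term the same difference was 0.044 (-0.051 to 0.14).

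Aqp4 and Gja1, the membrane channels, differed from each other in how the libraries fell. Aqp4 ran from 14.9 to 20 FPKM (median 17.8) with vehicle, from 16.2 to 20.8 FPKM (median 17.4) with angiotensin II, from 14.8 to 20.1 FPKM (median 17.2) with vehicle + AEC and from 16.5 to 20.2 FPKM (median 18.2) with angiotensin II + AEC. Its sets overlapped, and its difference between angiotensin II and vehicle was 0.0065 (-0.16 to 0.18), or -0.062 in the low set alone. Gja1 ran from 12.4 to 17.7 FPKM (median 16.0) with vehicle, from 14.3 to 18.1 FPKM (median 16.9) with angiotensin II, from 12.4 to 17.7 FPKM (median 16.7) with vehicle + AEC and from 13.6 to 18.3 FPKM (median 16.6) with angiotensin II + AEC. The lowest mouse of each group was a high-set library for Gja1. Its difference between angiotensin II and vehicle was 0.097 (-0.10 to 0.30), and 0.042 (-0.050 to 0.14) with the library set as a term.

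The general markers Aldh1l1 and S100b had 95% intervals that included 0 in each comparison over the 24 mice. Aldh1l1 ran from 12.5 to 15.6 FPKM (median 13.5) with vehicle, from 12.8 to 15.4 FPKM (median 13.8) with angiotensin II, from 13 to 14.9 FPKM (median 13.6) with vehicle + AEC and from 13.3 to 16.3 FPKM (median 15) with angiotensin II + AEC. The 2 groups last named averaged 13.7 ± 0.727 and 14.9 ± 1.33 FPKM (SD, n = 6), and 4 of 6 mice with angiotensin II + AEC were above the mean with vehicle + AEC. The log2 difference was 0.11 (-0.024 to 0.25, adjusted limma p of 1), and 0.082 (-0.0032 to 0.17) with the library set as a term. Without angiotensin II + AEC replicate 1 it was 0.14 with an unadjusted limma p of 0.0456. S100b ran from 118 to 175 FPKM (median 133) with vehicle, from 115 to 163 FPKM (median 131) with angiotensin II, from 117 to 152 FPKM (median 129) with vehicle + AEC and from 119 to 186 FPKM (median 132) with angiotensin II + AEC. Its medians were close, and its difference between angiotensin II + AEC and vehicle + AEC was 0.11 (-0.12 to 0.33), or 0.048 (-0.069 to 0.16) with the library set as a term. In the low set alone that difference was -0.0028.

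The interaction asks whether AECs changed a gene differently with and without angiotensin II. Its estimates ran from -0.21 (-0.74 to 0.32) for Slc1a2 to 0.17 (-0.27 to 0.60) for Vim on the log2 scale, all with an adjusted limma p of 0.931. The filament genes, Serpina3n, S100b, Aldh1l1 and Aqp4 had positive estimates, and Slc1a2, Slc1a3, Gja1 and Glul negative ones. The groups with 2 high-set libraries, vehicle and angiotensin II + AEC, are those that enter this contrast with a positive sign. The median over the 10 genes was 0.09, beside -0.026 over all tested genes, and 0.028 with the library set as a term.

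The library sets divided these genes more than the treatments did. Within groups, the high set differed from the low set by 0.52 for Vim, 0.46 for Gfap, 0.35 for S100b, 0.28 for Serpina3n and 0.18 for Aldh1l1 on the log2(FPKM + 0.1) scale. It differed by -0.68 for Slc1a2, -0.53 for Slc1a3, -0.33 for Gja1, -0.19 for Glul and -0.15 for Aqp4, beside a median of -0.074 over all tested genes. The sets did not overlap for 7 genes (Gfap, Vim, Slc1a2, Slc1a3, Gja1, S100b and Glul) and overlapped for Aqp4, Serpina3n and Aldh1l1. The library set took 90.6% of the variance of log2 values of Slc1a2 within the model of group and set, 89.3% for Slc1a3 and 80.3% for Gfap, down to 24.5% for Aqp4, whereas the group took 1.98% (Slc1a3) to 17.8% (Aldh1l1). Within the low set, the coefficient of variation of FPKM was 4.42% (Gja1) to 8.61% (Aqp4).

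The set difference tended to fall with gene length, though not for every gene. The sets were divided on total FPKM, which is higher where more fragments lie in shorter genes. A negative relation with length was therefore partly fixed by that division. Slc1a2, with 13133 bases of gene length as used by the authors, Gja1 with 10257 and Slc1a3 with 8537 are the longest of the 10 and were lower in the high set. S100b with 1484 bases and Serpina3n with 2064 are the shortest and were higher there. Over the 10 genes the Spearman correlation of length with the set difference was -0.661, and over the 13649 genes with a mean of at least 1 FPKM it was -0.521, as a description across genes of the same libraries. Genes of 1000 to 2000 bases had a median set difference of 0.46, those of 4000 to 5000 bases -0.081, and those above 10000 bases -0.55. Gfap (4218 bases) and Vim (4743 bases) stood above the upper quartile of the genes in their length range, which was 0.26. Glul, with 3323 bases, was lower in the high set, although Gfap, Aldh1l1 (4516 bases) and Vim are longer and were higher there. The difference of Glul lay within the middle of its length range (-0.26 to 0.33). Markers of other cell types also differed between the sets: the summed FPKM of 7 microglial markers was 104 to 121 in the low set and 136 to 153 in the high set, that of 5 endothelial markers 50.8 to 67.2 and 78.2 to 96.1, and that of 6 markers of pericytes and smooth muscle 32.0 to 40.5 and 49.9 to 66.8. The 3 markers of oligodendrocyte precursors went the other way, at 5.74 to 7.08 in the low set and 4.29 to 5.16 in the high set. The sums for neurons, mature oligodendrocytes and choroid plexus were also higher in the high set without overlap, and those for meninges, ependyma, cerebellar granule neurons, Bergmann glia, erythroid cells and neutrophils overlapped. The sums are of unscaled FPKM, whose total is higher in the high set by definition. Some rest largely on 1 gene, as on Ttr (mean 664 FPKM) for choroid plexus and Cldn5 (47.9 FPKM) for endothelium. They therefore do not measure numbers of cells. The part of length and of other cells in the difference was not tested.

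**Figure D3:**
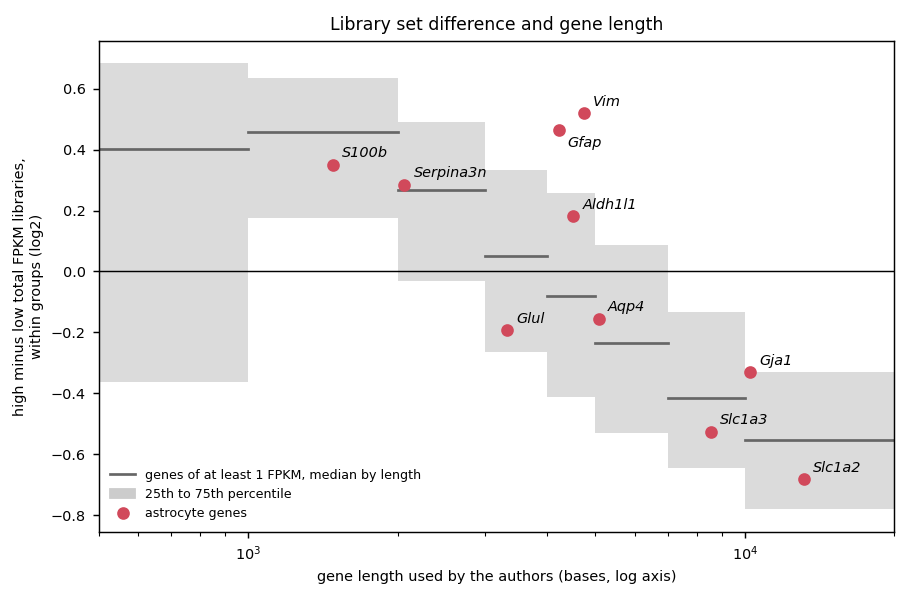
Mean log2(FPKM + 0.1) difference between the 6 libraries of high and the 18 of low total FPKM, within groups (y axis). The x axis is gene length as used by the authors (log scale). A fall with length was partly fixed by dividing the libraries on total FPKM. Red points are the 10 genes, and grey lines and boxes the median and the 25th to 75th percentile of genes with a mean of at least 1 FPKM by length; the difference falls with length, from 0.46 at 1000 to 2000 bases to -0.55 above 10000 bases, and Gfap and Vim stand above the box of their length.

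Across the 24 mice the genes formed opposite blocks that rested largely on the library sets. With group means removed, Pearson's r was 0.947 between Slc1a2 and Slc1a3 and 0.919 between Gfap and Vim, but -0.914 between Gfap and Slc1a2 and -0.921 between Vim and Slc1a2. With the means of library set removed as well, these became 0.315, 0.511, -0.112 and -0.481. Over the 45 pairs the median was then 0.077, with 24 pairs above 0 and 4 above 0.5. The closest pair was Slc1a3 and Gja1, at 0.589, and the most opposed was Vim and Aldh1l1, at -0.655. Aqp4 with Slc1a3 (0.538) and Aldh1l1 with Glul (0.531) were the other pairs above 0.5 besides Gfap and Vim. These values are descriptions over 24 mice that share the normalisation of one table and, within a mouse, one library.

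**Figure D4:**
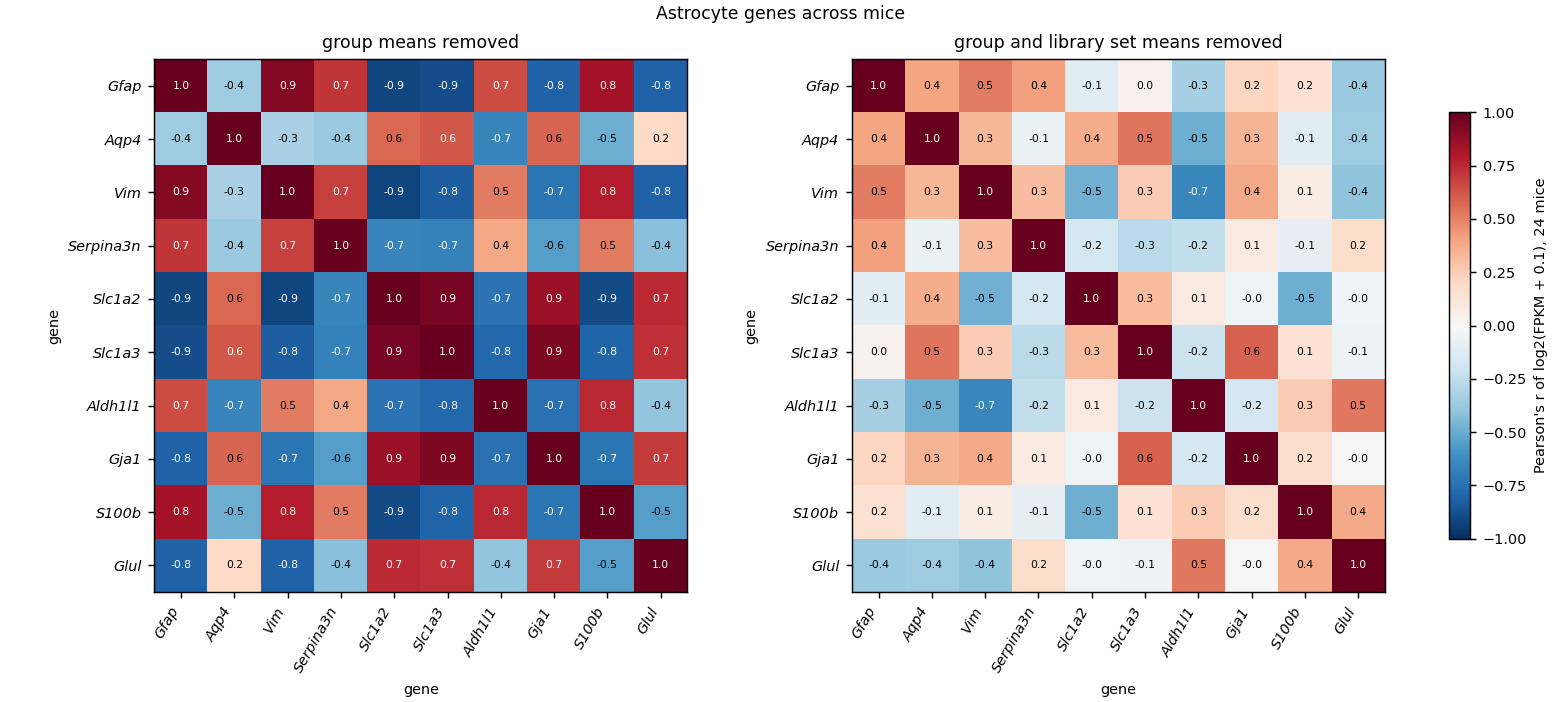
Pearson's r of log2(FPKM + 0.1) between each pair of the 10 genes over 24 mice (both axes list the genes, colour scale from -1 to 1). Left, group means removed; right, group and library set means removed: the strong blocks on the left, such as 0.947 for Slc1a2 with Slc1a3, are mostly pale on the right, where the range outside the diagonal is -0.655 to 0.589.

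Genes outside the list resembled single members more closely than the members resembled each other. After removal of group and library set means, over 24 mice and 13649 genes, the values closest to Glul were those of Slc2a1, the glucose transporter of the blood-brain barrier (r = 0.780), then Yrdc (0.778), Sdc4 (0.742), Fkbp5, a target of the glucocorticoid receptor (0.734), and Psat1, an enzyme of serine synthesis (0.728). Gfap was most like Arntl2 (0.805), F11r (0.765), Rflnb (0.748), Irgm2 (0.727) and Ccdc91 (0.724). Slc1a2 was most like Ppp1r9a (0.906), Atp2b1, a calcium pump of the plasma membrane (0.885), the potassium channel gene Kcnq3 (0.875), Rasgrf2 (0.872) and Rasgrp1 (0.872). The mean of the 10 standardised genes was most like Akap12 (0.871), Gm12663 (0.840), Cep120 (0.801), Dync1i2 (0.797) and Armh4 (0.771). None of these is a standard astrocyte marker in the lists used here, apart from Fkbp5, which is on a list of reactive genes. The highest of 13649 values is large by selection alone, so these are descriptions.

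Further genes of astrocytes and of their reaction were counted from lists, each in the same fit. Of 24 further identity genes, among them Aldoc, Clu, Agt and Kcnj10, 0 had an unadjusted p under 0.05 in any comparison, and their median log2 change was 0.021 with angiotensin II against vehicle and 0.0072 with angiotensin II + AEC against angiotensin II. In vehicle-infused mice Agt, which encodes angiotensinogen, the precursor of angiotensin II, had a mean of 56.3 ± 11.3 FPKM, against 53.7 ± 7.13 FPKM in mice infused with angiotensin II (SD, n = 6). Kcnj10, the potassium channel of astrocytes, stood at 46.8 ± 7.57 and 50.5 ± 4.92 FPKM in these groups. Ppp1r3c, a regulator of glycogen, had the lowest p of this list, at 11.7 ± 2.30 FPKM with vehicle and 14.2 ± 2.64 FPKM with vehicle + AEC, a log2 difference of 0.28 (-0.056 to 0.61).

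The pan-reactive list and the endotoxin list held no called gene. Of 17 pan-reactive genes and of 12 genes known from systemic endotoxin, 0 had an unadjusted p under 0.05 in any comparison. Lcn2, a secreted protein strongly linked to reactive astrocytes and also made by neutrophils, ran from 0.422 to 1.23 FPKM (median 0.703) with vehicle, from 0.502 to 3.14 FPKM (median 1.02) with angiotensin II, from 0.409 to 2.14 FPKM (median 0.588) with vehicle + AEC and from 0.490 to 4.19 FPKM (median 0.943) with angiotensin II + AEC. Its groups overlapped widely, and its log2 difference was 0.57 (-0.37 to 1.51) with angiotensin II against vehicle. Markers of neutrophils were counted in the same fit, and whether they varied with Lcn2 was not tested. All 5 (S100a8, S100a9, Camp, Ngp and Ltf) had an unadjusted limma p under 0.05 in the higher direction with angiotensin II + AEC against vehicle + AEC (1.53% of all genes were called higher). Of these, S100a8 and S100a9 did so with angiotensin II against vehicle (1.21% of all genes). Camp did so with angiotensin II + AEC against angiotensin II (1.09% of all genes) and in the interaction (1.18% of all genes). The summed FPKM of the 5 ran from 9.27 to 46.6 with angiotensin II + AEC and from 6.65 to 14.6 with vehicle + AEC. The part of neutrophils in the Lcn2 values was not tested. Mt2, a metallothionein, had a mean of 0.802 ± 0.463 FPKM with angiotensin II against 1.22 ± 0.578 FPKM with vehicle, on 3 to 24 reads, a log2 difference of -0.63 (-1.30 to 0.054). Steap4, a metalloreductase, stood at 0.332 ± 0.114 FPKM with angiotensin II and 0.231 ± 0.0576 FPKM with angiotensin II + AEC, a log2 difference of -0.36 (-0.79 to 0.063). C3, a complement gene, ran from 0.266 to 0.571 FPKM over all mice, and Gbp2, an interferon-induced GTPase gene, had a mean of 1.40 ± 0.105 FPKM with angiotensin II against 1.23 ± 0.243 FPKM with vehicle.

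Of 12 reactive genes known from ischaemia, 1 had an unadjusted p under 0.05 with angiotensin II against vehicle, in the lower direction, beside 1.0% of all genes. This was Ptx3, a secreted pattern recognition protein, which ran from 0.118 to 0.326 FPKM (median 0.202; 6 to 19 reads) with vehicle and from 0.0366 to 0.223 FPKM (median 0.0953; 2 to 10 reads) with angiotensin II. The groups overlapped, and the log2 difference was -0.62 (-1.19 to -0.051, unadjusted limma p of 0.0340, adjusted p of 0.994). With angiotensin II + AEC against angiotensin II, 1 of the 12 was called at this threshold in the lower direction, beside 1.45% of all genes, but this gene, Slc10a6, had 0 to 4 reads in every mouse and no fold is given. It was also the 1 gene of the 12 called in the interaction, where 1.36% of all genes were called in the lower direction.

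The glutamate and glutamine cycle and the endfoot complex also held no called gene. Of 13 genes of the cycle and of 14 genes of the endfoot and dystrophin complex, 0 had an unadjusted p under 0.05 in any comparison. Slc38a5, a glutamine transporter, had the lowest p of the cycle, at 3.17 ± 0.445 FPKM with vehicle and 2.69 ± 0.379 FPKM with vehicle + AEC, a log2 difference of -0.23 (-0.49 to 0.021). Slc17a7, the vesicular glutamate transporter of cortical neurons, had a mean of 205 ± 31.4 FPKM with angiotensin II against 231 ± 52.8 FPKM with vehicle. Its medians were nearly equal, at 203 and 204 FPKM, and its ranges overlapped (167 to 262 and 186 to 306 FPKM). Of the endfoot genes, Gjb6, the gap junction gene connexin 30, stood at 26.9 ± 2.53 FPKM with angiotensin II and 24.4 ± 3.02 FPKM with angiotensin II + AEC, and Mlc1, a membrane protein of endfeet, at 71.2 ± 6.85 and 75.6 ± 10.8 FPKM.

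Of 18 genes of the STAT3 pathway and of other signals known to act on astrocytes, 0 had an unadjusted p under 0.05 with angiotensin II against vehicle. Socs3, a feedback inhibitor induced by STAT3, came nearest, at 1.55 ± 0.250 FPKM with angiotensin II against 1.29 ± 0.154 FPKM with vehicle, a log2 difference of 0.24 (-0.015 to 0.50). Stat3 itself stood between 5.76 and 6.01 FPKM on average in the 4 groups. Lif, a cytokine of the interleukin-6 family, was the 1 gene of 18 called at this threshold with vehicle + AEC against vehicle, in the lower direction, beside 1.29% of all genes. It ran from 0.148 to 0.252 FPKM (12 to 26 reads) with vehicle and from 0.0685 to 0.192 FPKM (6 to 17 reads) with vehicle + AEC, a log2 difference of -0.42 (-0.79 to -0.045, unadjusted limma p of 0.0297, adjusted p of 0.995). Il6 was the 1 gene of 18 called with angiotensin II + AEC against angiotensin II, in the lower direction (beside 1.45% of all genes), but it had 0 to 3 reads in every mouse of the 4 groups, so no fold is given, here or in the interaction, where it was again the 1 gene called, in the lower direction (beside 1.36% of all genes).

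**Figure D5:**
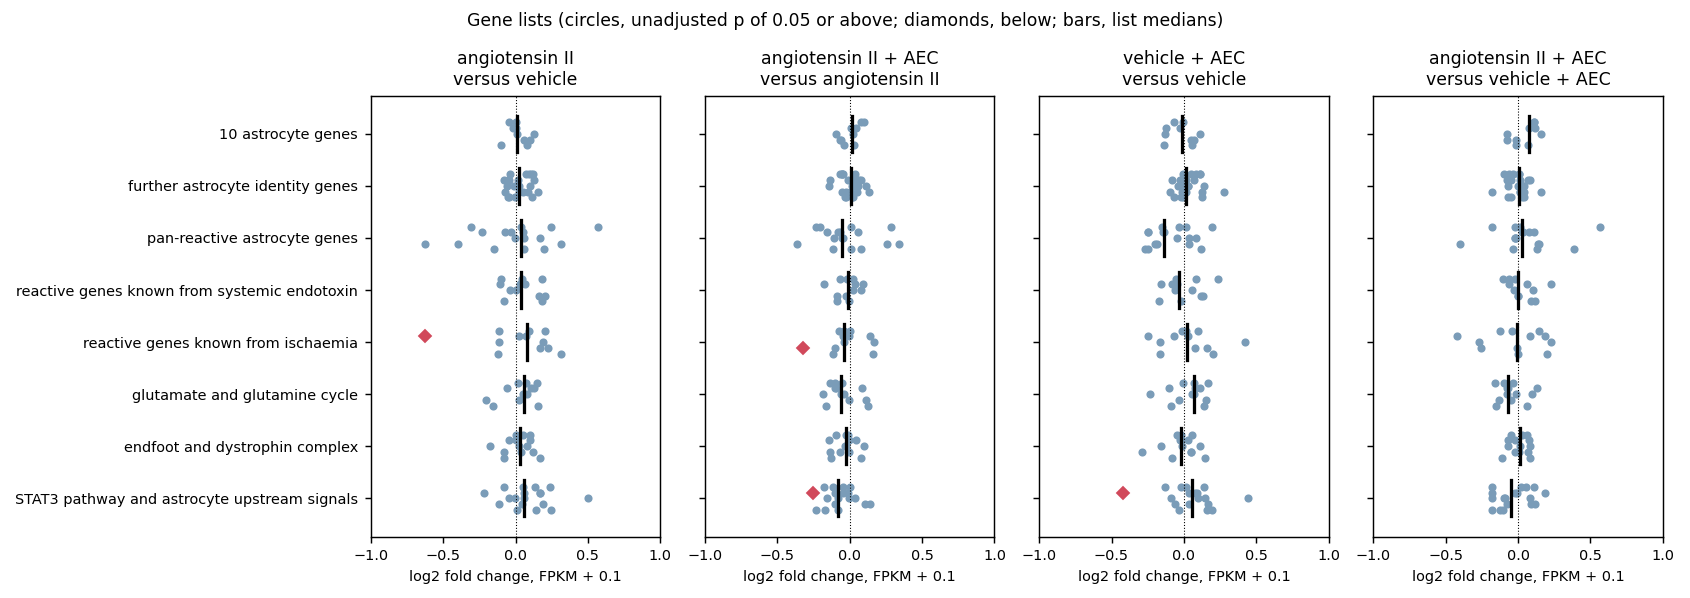
Log2 fold change on the FPKM + 0.1 scale (x axis) of each gene of 8 lists (y axis) in the 4 pairwise comparisons, n = 6 mice per group. Circles have an unadjusted limma p of 0.05 or more, red diamonds a lower p, and black bars are list medians; the 4 diamonds are Ptx3, Slc10a6, Il6 and Lif, all lower, and the medians lie near 0.

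Markers of other cell types were present in every library, as brain tissue taken without separating cells holds them. The summed FPKM of the 10 astrocyte genes ran from 789 to 958 over the mice, with group medians of 889 (vehicle), 912 (angiotensin II), 903 (vehicle + AEC) and 900.1 (angiotensin II + AEC). That of 7 neuronal markers ran from 838 to 971, with group medians of 889 to 907. Of the lists for neurons, microglia, mature oligodendrocytes, oligodendrocyte precursors, pericytes and smooth muscle, ependyma, choroid plexus, cerebellar granule neurons, Bergmann glia and erythroid cells, 0 genes had an unadjusted p under 0.05 in any comparison, and none of the markers was at 0 in any library. Of 5 endothelial markers, Pecam1 had an unadjusted limma p under 0.05 with angiotensin II + AEC against vehicle + AEC, in the higher direction (beside 1.53% of all genes). Of 5 meningeal markers, Col1a1 did so in the same comparison and in the interaction (beside 1.18% of all genes in the higher direction), and Lum did so with vehicle + AEC against vehicle, in the lower direction (beside 1.29% of all genes). The groups of the astrocyte sum overlapped in each comparison.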

How the data were processed

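Brain RNA of 24 mice (6 per group, grouped by the treatment in the sample labels) was poly-A selected and sequenced. The authors deposited FPKM values, one column per mouse, after mapping to the Ensembl mouse genome and annotation (GRCm38 and mm10 in the submitters' processing notes, which also name DESeq 1.10.1); aligner, counting program and strand setting are not given in the sources used here. FPKM times gene length was a whole multiple of one step for 100% of values (tolerance 0.05 reads), which gave the reads. Two-sided tests were made in R 4.3.3 with limma 3.58.1 (pseudocount 0.1, eBayes with trend, genes above 0 in at least 6 mice), and single genes were tested by exact permutation (Python 3.11.15, scipy 1.17.1, pandas 2.3.3, numpy 2.4.6, matplotlib 3.10.9). Library sets were divided at a total of 320000 FPKM. Named genes were all 10 members, genes among the 3 with the lowest p per list and comparison, and the 5 genes (mean of at least 1 FPKM) most like Glul, Gfap, Slc1a2 and the members' mean; Agt, Stat3, Aldoc, Clu and the named markers of other cells were chosen after their values were seen. Members and lists were chosen with earlier results of these data known. The fit was tested on simulated data that held no difference between library sets. That test does not show how the fit without a set term performs on these libraries. Replicate numbers were not treated as pairs, since the labels tie them to no shared animal, litter or day. Within groups the samples are separate mice, so p-values cover the spread between mice. Alternatives were other pseudocounts, filters, groups in the fit, scaling, a replicate block, library sets, limma voom on the recovered reads, and leaving out each mouse. Physiological and cell data of the study were not analysed here.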

Additional observations from a re-analysis of the deposited data

Results flagged for a closer look

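Single mice far from the rest of their group were sought in the 40 sets of 6 values (10 genes in 4 groups), with Dixon's ratio of the gap next to the extreme mouse to the whole range and a critical value of 0.625. In 7 of the 40 the ratio was above it, where chance gives about 1 in 20, and the sets are not independent since the genes share their libraries. With angiotensin II, replicate 5 was highest for Gfap (ratio 0.659) and Vim (0.629) and lowest for Slc1a2 (0.82) and Slc1a3 (0.668). With vehicle + AEC, replicate 6 was highest for Gfap (0.847) and lowest for Slc1a3 (0.657) and Gja1 (0.729). All 7 were high-set libraries, in the groups that hold only 1 of them. The groups with 2 such libraries gave no ratio above the critical value. The ratio takes the gap next to a single mouse, so 2 high-set libraries lying together can hide each other.

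The effect of AECs differed with and without angiotensin II at an unadjusted limma p of 0.04619 for Il6, with 0 to 3 reads per mouse, and of 0.03801 for Slc10a6, with 0 to 4 reads. The adjusted p was 0.931 for both.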

How the results depend on the processing

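No member passed an adjusted p of 0.05 under any alternative. In the 18 low-set libraries alone, 1 member had an unadjusted limma p under 0.05. This was Gfap with angiotensin II + AEC against angiotensin II (limma p of 0.03463, adjusted p of 0.998). The difference was -0.1028 there, 0.022 over all mice, and -0.055 over all mice with the library set as a term. The cause was not tested. The low-set median over the members was 0.0305 with angiotensin II + AEC against vehicle + AEC and -0.0042 in the interaction. The interaction median was 0.0276 with the library set as a term and 0.0145 with replicate block and library set together. Same-numbered mice did not vary together throughout. Their 24 correlations ran from -0.224 to 0.797, with 5 at or under 0.1. Of 24 libraries, 7 correlated best with their own number. Each correlation below 0 joined a high-set to a low-set library. With the replicate block, 1 member, Aldh1l1 (0.11, unadjusted p of 0.0481), was called with angiotensin II + AEC against vehicle + AEC, and the block raised the count of all genes there from 725 to 1096.

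Leaving out each mouse, 0 to 1 members had an unadjusted p under 0.05 with angiotensin II + AEC against vehicle + AEC; the 1 was Aldh1l1 at 0.14 (p of 0.0456) without angiotensin II + AEC replicate 1. The medians ran from -0.0217 (without angiotensin II replicate 3) to 0.0594 (without angiotensin II + AEC replicate 2) with angiotensin II + AEC against angiotensin II. They ran from 0.0228 (without angiotensin II + AEC replicate 6) to 0.0973 with angiotensin II + AEC against vehicle + AEC, and from 0.0414 to 0.1053 in the interaction. Over 10 alternatives, 63 of 490 member estimates, interactions included, changed sign without being called. When a mouse was left out, 57 of 1200 did so.

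The counts of all genes at an unadjusted p under 0.05 moved more. With angiotensin II against vehicle the count was 604, against 93 among genes with a mean of at least 1 FPKM, 969 with no filter, 950 with the block, 944 with the set as a term and 1053 in the low set. Over the alternatives that leave out no single mouse it ran from 119 to 1259 with angiotensin II + AEC against angiotensin II (694), from 105 to 1140 with vehicle + AEC against vehicle (658), from 136 to 1164 with angiotensin II + AEC against vehicle + AEC (725) and from 118 to 1416 in the interaction (692). Without vehicle + AEC replicate 6 alone it was 1188, 1247 and 1244 in the last 3 of these. At an adjusted p under 0.05 it was 0 except for 1 gene with angiotensin II + AEC against vehicle + AEC without vehicle + AEC replicate 1. Rescaling by median ratios moved no median of all genes by over 0.1. The planned edgeR and DESeq2 fits were not run, since the table holds FPKM, and limma voom on the recovered reads was added after seeing the data, as was the block together with the set.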
